A study of Mus musculus with 4 samples.

Results

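Glycogen is the branched glucose store of the liver, and 9 genes that build it, break it down or control both processes were described here across 4 mouse liver libraries. The genes were Gyg, Ugp2, Gys2, Gbe1, Pygl, Phka2, Ppp1r3b, Ppp1r3c and Ppp1r3g, taken by symbol out of 22849 symbols in the deposited table. They were listed by name and not by their values, although the list was drawn up with earlier results of these data known. Each had 1 row. Epm2a, which encodes the glycogen phosphatase laforin, was left out because 1 of its 2 rows lies at 174296 FPKM or above in every library.

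The livers came from male C57BL/6 mice, an inbred laboratory strain. For 12 weeks both groups received high fat food (60% fat). The vehicle group (2 libraries) had no UAB126 in that food, and the UAB126 group (2 libraries) had UAB126, a compound given only by this code, at 1.2 g per kg of diet. The sources used here do not give age, fasting state or time of collection, nor do they say whether a library held 1 animal or several. The titles only number the libraries, so the p-values cover only how far these 4 samples spread, which may be technical. Levels are FPKM, fragments divided by transcript length and scaled by library, with the exact scaling not given in the sources used here. Levels of different genes can be compared per length only as far as fragments were assigned to the right row, which was not tested.

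In the liver, glycogen is made after a meal and broken down between meals to release glucose to the blood. Glycogenin (Gyg) primes a new particle, UDP-glucose pyrophosphorylase (Ugp2) makes the activated sugar, liver glycogen synthase (Gys2) lengthens the chains and the branching enzyme (Gbe1) adds the branches. Liver glycogen phosphorylase (Pygl) removes glucose units, and it is switched on by phosphorylase kinase, whose liver alpha subunit is Phka2. Protein phosphatase 1 reverses these phosphorylations, activating the synthase and inactivating the phosphorylase, and Ppp1r3b, Ppp1r3c and Ppp1r3g encode subunits that bring it to glycogen. The synthase and the phosphorylase are also controlled by phosphorylation and metabolites, which RNA levels do not show.

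On mm10 (GRCm38, gene spans from GENCODE M21) the genes lie on different chromosomes, all as protein-coding genes. Gyg is at chr3:20122084-20155317, Ugp2 at chr11:21321138-21371201, Gys2 at chr6:142422613-142473109, Gbe1 at chr16:70313949-70569716 and Pygl at chr12:70190811-70231488. Phka2 is at chrX:160502166-160598878, Ppp1r3b at chr8:35375739-35388139, Ppp1r3c at chr19:36731731-36736653 and Ppp1r3g at chr13:35958839-35970388. The loci of the deposited rows of Ugp2, Gyg and Pygl were 13.2, 9.59 and 5.32 times as wide as the gene. The part of sequence beyond the gene in these 3 values was not tested. The row of Ppp1r3g covered 2484 bases of an annotated span of 11550 bases.

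RefSeq's promoter windows on GRCm38.p6 (250 bases before to 50 after a transcription start) were found for 7 of the 9 genes, in 8 windows, with none for Gys2 and Ppp1r3b. The stretches below lie before the RefSeq start of their window and outside annotated exons. That of Pygl lies inside the gene span given above, which begins further upstream than this RefSeq start. Gbe1 is shown for the widest difference among the tested genes, Pygl and Phka2 because both UAB126 libraries were below both vehicle libraries and the stretch holds a match, and Ppp1r3c because it holds the one E-box upstream of a start. Ugp2, with UAB126 libraries below vehicle as well, had no match in its 2 windows and is not printed. Capitals mark matches to the motifs searched. They are, in order, Gbe1 at chr16:70313699-70313948 on the plus strand, Pygl at chr12:70227684-70227840 on the minus strand, Phka2 at chrX:160501912-160502161 on the plus strand and Ppp1r3c at chr19:36736654-36736854 on the minus strand.
Gbe1: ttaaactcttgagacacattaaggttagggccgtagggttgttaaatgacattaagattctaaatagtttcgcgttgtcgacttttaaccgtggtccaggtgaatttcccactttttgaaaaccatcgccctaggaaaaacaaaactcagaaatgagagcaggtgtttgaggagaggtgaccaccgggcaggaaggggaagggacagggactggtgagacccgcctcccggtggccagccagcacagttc
Pygl: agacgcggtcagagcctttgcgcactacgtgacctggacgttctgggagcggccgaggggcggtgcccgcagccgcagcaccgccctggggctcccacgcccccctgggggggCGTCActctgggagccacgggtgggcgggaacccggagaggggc
Phka2: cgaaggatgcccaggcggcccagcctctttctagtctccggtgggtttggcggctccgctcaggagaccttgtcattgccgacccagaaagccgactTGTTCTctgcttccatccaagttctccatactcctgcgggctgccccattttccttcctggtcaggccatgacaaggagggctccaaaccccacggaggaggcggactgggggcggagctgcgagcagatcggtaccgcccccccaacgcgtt
Ppp1r3c: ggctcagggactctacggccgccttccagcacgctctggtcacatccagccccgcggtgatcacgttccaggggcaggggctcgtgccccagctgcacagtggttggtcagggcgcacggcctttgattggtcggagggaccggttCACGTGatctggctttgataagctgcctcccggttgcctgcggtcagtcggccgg

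The motifs, searched on both strands, were the E-box CACGTG, a FoxO-type GTAAACA, the cAMP-response TGACGTCA and its shorter core TGACG (contained in the full motif), a glucocorticoid-type TGTTCT and an ATF4-type TGATGCAAT. The E-box was present in 2 of the 8 windows (Ppp1r3c and Gyg), against 7.15% of all 32851 windows. In Ppp1r3c it lay 104 to 99 bases before the start, and in Gyg 8 to 13 bases after the first base of the transcript. The core TGACG was in 3 windows (Pygl, Ppp1r3g and Gyg, where it overlapped the E-box by 2 bases) and in 20.8% of all windows. TGTTCT was in Phka2 and in 19.0% of all windows. The FoxO-type, full cAMP-response and ATF4-type motifs were in none of the 8 windows, and in 3.65%, 1.79% and 0.192% of all windows. Gbe1, whose difference was the widest of the 8 tested genes, had no match. Its window was also the poorest in G and C of the 8, at 54.3%, against a median of 52.7% over all windows. These matches describe letters only.

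The comparison asked how these genes differed in the liver between mice that ate UAB126 in a high fat diet and mice that ate the diet alone. None of the 8 genes tested passed (limma on log2(FPKM + 1), adjusted p under 0.05 over the 10786 symbols whose mean reached 1 FPKM). Adjusted p ran from 0.274 to 0.765, and 0.139% of all tested symbols passed. At an unadjusted p under 0.05 there were 2 of the 8 genes, Gbe1 and Phka2, both lower with UAB126, against 8.38% of all tested symbols in that direction. Both UAB126 libraries lay below both vehicle libraries in 5 genes (Gys2, Gbe1, Ugp2, Pygl and Phka2), against 26.9% of all tested symbols. They lay above in 1 gene (Ppp1r3b), against 22.7%. The groups overlapped in Gyg and Ppp1r3c, and Ppp1r3g was too low to be tested. In whole liver, fewer cells of a type and less RNA per cell cannot be told apart.

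**Figure D1:**
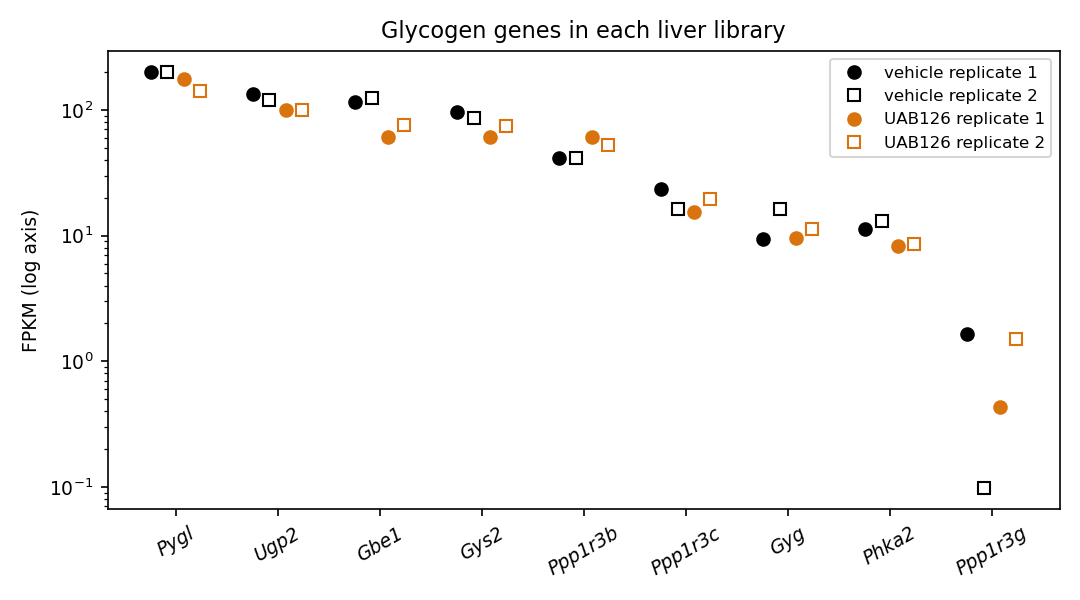
FPKM on a log axis for the 9 glycogen genes, with a point for each library (black, vehicle; orange, UAB126; filled circles, replicate 1; open squares, replicate 2). Both orange points lie under both black points for Pygl, Ugp2, Gbe1, Gys2 and Phka2 and above them for Ppp1r3b, and the points of Ppp1r3g spread from 0.0975 to 1.65 FPKM.

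Among the genes of synthesis, the branching enzyme gene Gbe1 had the widest difference. It had 116 FPKM in replicate 1 and 125 FPKM in replicate 2 of the vehicle group, against 61.2 and 76.4 FPKM in those of the UAB126 group (all later pairs are in this order). The lower vehicle value was well above the higher UAB126 value. The mean with UAB126 was 43.0% lower, and the log2 difference was -0.81 ± 0.22 (moderated SE of limma with 2 libraries per group; limma adjusted p = 0.274), with a 95% interval from -1.37 to -0.25. All later ± values are this SE, of whose 5.35 degrees of freedom 3.35 come from how other genes spread.

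Gys2, the liver glycogen synthase, was at 96.6 and 86.9 FPKM in the vehicle pair against 61.5 and 74.7 FPKM in the UAB126 pair. Its groups did not overlap, and the gap between the nearest libraries was close to the spread within either group. The log2 difference was -0.43 ± 0.22 (limma adjusted p = 0.429), with an interval from -0.98 to 0.12. Ugp2, which supplies UDP-glucose, was at 133 and 121 FPKM in the vehicle pair against 99.5 and 101 FPKM in the UAB126 pair. The UAB126 libraries were nearly equal and both were below the vehicle pair, with a log2 difference of -0.34 ± 0.21. Gyg, the glycogenin gene, was at 9.35 and 16.2 FPKM in the vehicle pair against 9.66 and 11.3 FPKM in the UAB126 pair. Vehicle replicate 2 stood above the other libraries in Gyg, and vehicle replicate 1 was the lowest of the 4. The log2 difference of Gyg was -0.22 ± 0.29, and 0.15 without vehicle replicate 2.

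Relative to the synthase, the branching enzyme was also lower. Gbe1 divided by Gys2 within a library was 1.20 and 1.44 in vehicle and 0.994 and 1.02 with UAB126, a ratio that does not depend on how a library is scaled. It was chosen after the values were seen. The exact two-sided permutation test gave p = 0.333, the smallest that 2 against 2 libraries allow.

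On the side of breakdown, Pygl had the highest level of the 9 genes in each library. It was at 202 FPKM in both vehicle libraries and at 176 and 143 FPKM with UAB126. The vehicle pair was almost identical, and the UAB126 pair was lower and further apart. Its log2 difference was -0.35 ± 0.23 (limma adjusted p = 0.506), and after quantile normalization, which gives every library the same distribution of values, its direction turned, to 0.058. The difference of Pygl was -0.20 without UAB126 replicate 2 and -0.50 without UAB126 replicate 1. Phka2, the liver alpha subunit of phosphorylase kinase, was at 11.2 and 12.97 FPKM in the vehicle pair against 8.22 and 8.59 FPKM in the UAB126 pair. Every vehicle value exceeded every UAB126 value, with a log2 difference of -0.48 ± 0.18 (limma adjusted p = 0.349) and an interval from -0.92 to -0.032.

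The ratio of synthase to phosphorylase RNA did not separate the groups. Gys2 divided by Pygl was 0.478 and 0.430 in vehicle and 0.350 and 0.523 with UAB126. The UAB126 values lay on both sides of the vehicle pair (exact two-sided permutation p = 1, where 0.333 is the smallest possible). With 2 libraries per group, this does not show that the ratio was the same.

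Among the targeting subunits, Ppp1r3b, the main liver subunit that brings protein phosphatase 1 to glycogen, was the one tested gene of the 8 with a higher mean with UAB126. It was at 41.6 and 41.2 FPKM in the vehicle pair against 61.6 and 52.5 FPKM in the UAB126 pair. The vehicle pair was nearly equal, and both UAB126 libraries were higher, with a mean 1.38 times that of vehicle. The log2 difference was 0.45 ± 0.20 (limma adjusted p = 0.399), with an interval from -0.052 to 0.95, and it was 0.64 after quantile normalization. Ppp1r3c, a more widely expressed targeting subunit also called PTG, whose promoter stretch with the E-box is printed above, was at 23.7 and 16.4 FPKM in the vehicle pair against 15.5 and 19.5 FPKM in the UAB126 pair. Its groups overlapped, with a log2 difference of -0.17 ± 0.25, which was 0.080 without vehicle replicate 1 and -0.43 without vehicle replicate 2. Ppp1r3g, another such subunit, was at 1.65 and 0.0975 FPKM in the vehicle pair against 0.434 and 1.51 FPKM in the UAB126 pair. The highest and the lowest value were both in the vehicle group. In rows of similar transcript length (within 10%), the smallest value above 0 was 0.0429 FPKM in vehicle replicate 2, so its 0.0975 FPKM lies near the bottom of what that library can show.

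The summed FPKM of 6 targeting subunit genes (Ppp1r3b to Ppp1r3g) was 68.7 and 60.2 in vehicle and 80.6 and 75.4 with UAB126. Ppp1r3b made up 60.6% and 68.4% of that sum in vehicle and 76.4% and 69.6% with UAB126. Ppp1r3c made up 34.5% and 27.2% in vehicle and 19.2% and 25.8% with UAB126. For both shares the groups did not overlap, but vehicle replicate 2 and UAB126 replicate 2 differed by little more than 1 percentage point (exact two-sided permutation p = 0.333 for each, the smallest possible). Ppp1r3g made up 2.41% and 0.162% in vehicle and 0.538% and 2.01% with UAB126.

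**Figure D2:**
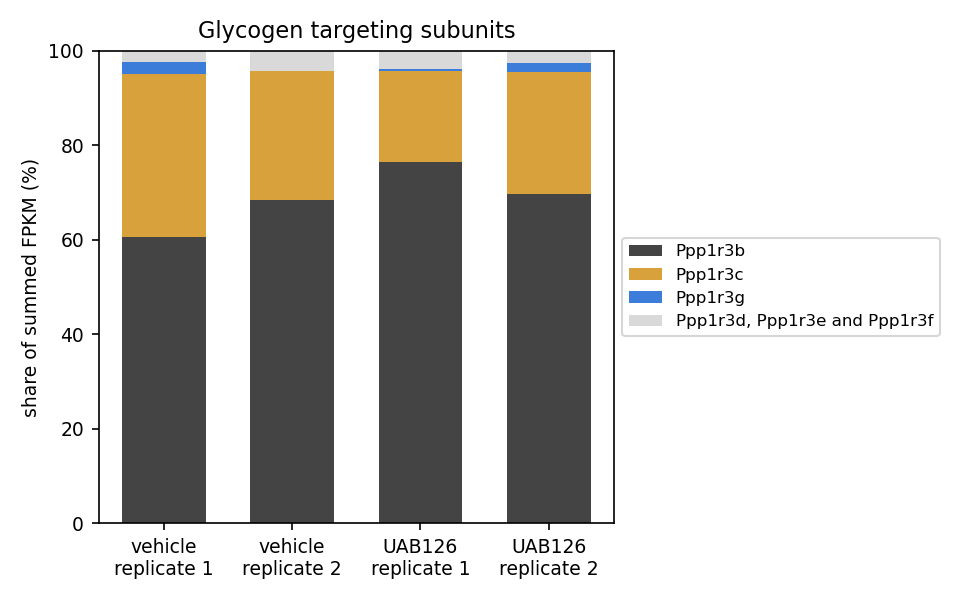
Share (%) of the summed FPKM of the 6 targeting subunit genes in each library, as stacked bars from 0 to 100%. Ppp1r3b is the largest part of every bar, from 60.6% in vehicle replicate 1 to 76.4% in UAB126 replicate 1.

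The order of levels per length changed little between groups. In vehicle it was Pygl, Ugp2, Gbe1, Gys2, Ppp1r3b, Ppp1r3c, Gyg, Phka2 and Ppp1r3g, and by means the order was the same with UAB126. In vehicle the ranges of Ugp2 and Gbe1 overlapped, as did those of Gyg and Phka2. With UAB126 the range of Gys2 lay within that of Gbe1, and Gys2 overlapped with Ppp1r3b. The mean of Ppp1r3b was thus 41.4 FPKM beside 91.8 FPKM of Gys2 in vehicle, and 57.0 beside 68.1 FPKM with UAB126.

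Abundant genes at large also tended to lower values with UAB126. The median log2 difference was -0.025 over all tested symbols, but -0.31 over the 1768 with a mean of at least 50 FPKM, a limit set after the data were seen. Of these 1768, 45.5% were lower in both UAB126 libraries than in both vehicle libraries and 9.84% higher. Gys2, Gbe1, Ugp2 and Pygl belong to them, and the differences of Ugp2 and Pygl (-0.34 and -0.35) and of Gys2 (-0.43) were near that median, while that of Gbe1 (-0.81) was further from it. After quantile normalization the median of the abundant genes was -0.0018 (that of all tested symbols was 0.037), and the log2 differences were -0.56 for Gbe1, -0.44 for Phka2, -0.18 for Gys2, -0.031 for Ugp2 and 0.058 for Pygl. None passed there either. The median of the 8 tested members was -0.34 as deposited.

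**Figure D3:**
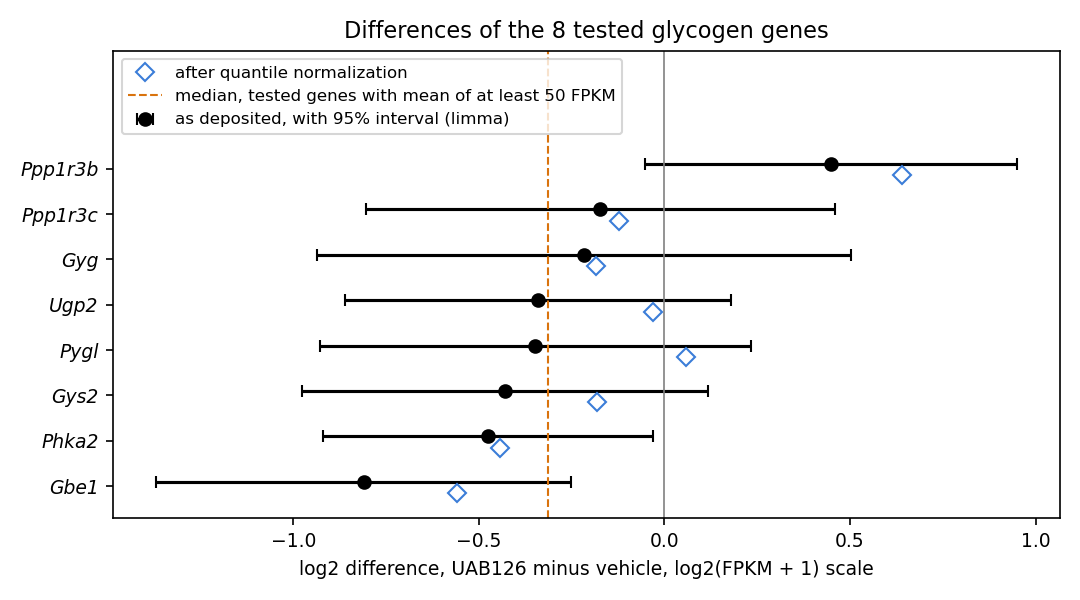
Log2 difference (UAB126 minus vehicle, log2(FPKM + 1) scale) of the 8 tested genes, as deposited with limma's 95% interval (black) and after quantile normalization (blue diamonds). The dashed line is the median of tested genes with a mean of at least 50 FPKM, at -0.31; Ugp2, Pygl and Gys2 lie near it, Gbe1 at -0.81 lies to its left and Ppp1r3b at 0.45 to its right.

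The patterns nearest to Gbe1 and Ppp1r3b were found by the distance between the 4 log2 values of 2 genes after subtracting each gene's mean, over all tested symbols. With 4 libraries this is a description. Among the genes nearest to Gbe1 were Glo1 (glyoxalase 1, distance 0.044) and 5033406O09Rik (0.045). Glo1 was at 181 and 188 FPKM in the vehicle pair against 92.2 and 114 FPKM in the UAB126 pair. Nearest to Ppp1r3b were Mtmr12 (0.012), 9630033F20Rik (0.018) and Nf2 (0.039), all of them at 11.3 FPKM or less in every library. The values compared were log2(FPKM + 1), which shrinks the differences of low genes. Mtmr12 was at 1.21 and 1.19 FPKM in the vehicle pair against 2.25 and 1.75 FPKM in the UAB126 pair, a wider relative rise than that of Ppp1r3b.

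Of 37 further genes of glycogen handling, 36 were in the table under the symbols listed and 30 were tested. None passed (limma adjusted p from 0.286 upward). At an unadjusted p under 0.05, 8 were lower and 1 higher with UAB126, against 8.38% and 5.03% of all tested symbols. Both UAB126 libraries were below both vehicle libraries in 17 of the 30 and above in 6, against 26.9% and 22.7% of all tested symbols (45.5% and 9.84% of those with a mean of at least 50 FPKM, described above). The median log2 difference of the 30 was -0.34. Without vehicle replicate 1, 4 of the 30 passed, Pygm, Pygb, Hk2 and Gys1 (limma adjusted p from 0.00349 to 0.0316), against 4.1% of all tested symbols (442 of 10786), in a fit where the lone vehicle library is assumed to vary like the UAB126 pair.

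The named genes of this list include a phosphoglucomutase, an enzyme that feeds glucose into glycogen, and the receptor of glucagon, the hormone that sets off its breakdown. Pgm2 as the table names it (on chromosome 4, Pgm1 in RefSeq), a phosphoglucomutase that interconverts glucose 1-phosphate and glucose 6-phosphate, was at 366 and 377 FPKM in the vehicle pair against 233 and 269 FPKM in the UAB126 pair. The other row with a Pgm symbol, Pgm1 in the table (on chromosome 5, Pgm2 in RefSeq), was at 1.84 and 1.87 FPKM and at 4.25 and 3.005 FPKM. It was opposite in direction and far lower in level, and its part in glycogen supply was not examined. Gckr was at 193 and 197 FPKM in the vehicle pair against 123 and 137 FPKM in the UAB126 pair. Gcgr, the glucagon receptor, was at 291 and 335 FPKM and at 166 and 210 FPKM. These 4 were named because their groups did not overlap and their differences were among the largest, so neither trait is a finding. Their unadjusted p in limma ran from 0.0247 (Pgm1) to 0.0541 (Pgm2), low values that this choice favours.

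Slc37a4, which carries glucose 6-phosphate into the endoplasmic reticulum, was at 134 and 155 FPKM in the vehicle pair against 73.5 and 114 FPKM in the UAB126 pair. Ppp1ca, a catalytic subunit of protein phosphatase 1, was at 202 and 235 FPKM and at 136 and 171 FPKM. Nhlrc1, which encodes malin, the partner of laforin, was at 1.49 and 2.36 FPKM and at 0.635 and 0.480 FPKM. In each of these 3 the UAB126 libraries were the lower pair, but groups that did not overlap were again a condition for naming them. The other 3 tested subunits of phosphorylase kinase, Phka1, Phkb and Phkg2, were also lower in both UAB126 libraries, like Phka2 and 26.9% of all tested symbols, with no unadjusted p under 0.05. Of the 6 kinase genes of the list (Gsk3a, Gsk3b, Prkaca, Prkacb, Prkaa1 and Prkaa2), both UAB126 libraries were the higher pair in 4 and the lower pair in 1 (22.7% and 26.9% of all tested symbols), again with no unadjusted p under 0.05.

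The liver forms dominated in each library, but the share of the muscle and brain forms differed between libraries. Pygl made up 96.0% and 86.1% of the summed FPKM of the 3 phosphorylase genes in vehicle and 98.5% and 97.4% with UAB126. Gys2 made up 98.3% and 96.0% of the 2 synthase genes in vehicle and 98.6% and 99.1% with UAB126. Phka2 made up 84.0% and 82.7% of Phka2 and Phka1 in vehicle and 81.9% and 84.7% with UAB126. These 3 shares were chosen after the values were seen.

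Pygm, the muscle phosphorylase, was at 4.32 and 22.5 FPKM in the vehicle pair against 0.613 and 1.77 FPKM in the UAB126 pair. Pygb, the brain phosphorylase, was at 4.05 and 10.1 FPKM and at 2.01 and 2.06 FPKM. Gys1, the muscle synthase, was at 1.62 and 3.59 FPKM and at 0.904 and 0.659 FPKM, and Hk2, the hexokinase of muscle and fat, was at 1.12 and 3.50 FPKM and at 0.370 and 0.654 FPKM. In all 4, vehicle replicate 2 was by far the highest library. Of the skeletal muscle markers, all 4 markers of that list were highest in vehicle replicate 2. Ckm and Acta1, 2 of the 4, were lower in both UAB126 libraries than in both vehicle libraries, against 26.9% of all tested symbols. Myh4 was too low to be tested. The summed level of the 4 was 15.03 and 78.1 FPKM in the vehicle pair against 2.34 and 4.56 FPKM in the UAB126 pair. In the vehicle pair most of it was Ckm, the muscle creatine kinase, at 11.1 and 56.6 FPKM in the vehicle pair against 0.342 and 2.09 FPKM in the UAB126 pair. Acta1, skeletal actin, was at 2.195 and 17.4 FPKM and at 0.152 and 0.923 FPKM, and Myh4, a fast myosin, was at 0.106 FPKM or less in every library and listed at 0 in vehicle replicate 1. Mylpf, a muscle myosin light chain, was at 1.70 and 4.01 FPKM in the vehicle pair against 1.84 and 1.49 FPKM in the UAB126 pair, which overlapped. Without vehicle replicate 2 the log2 difference went from -2.40 to -1.33 for Pygm and from -1.31 to -0.74 for Pygb. Among the tested members, it went from -0.22 to 0.15 for Gyg, from -0.17 to -0.43 for Ppp1r3c and from -0.48 to -0.38 for Phka2. It went from -0.43 to -0.50 for Gys2, from -0.34 to -0.41 for Ugp2 and from -0.81 to -0.76 for Gbe1. For Pygl it was -0.35 in both fits, and for Ppp1r3b it was 0.45 and then 0.44. Ppp1r3a, the muscle targeting subunit, and Hk1, the hexokinase of many tissues, were singled out after their values were seen. Hk1 was at 1.095 and 3.08 FPKM in the vehicle pair against 1.096 and 1.44 FPKM in the UAB126 pair. Ppp1r3a was at 0.182 and 1.37 FPKM in the vehicle pair against 0.00600 and 0.0256 FPKM in the UAB126 pair. The part of muscle RNA in these differences was not tested. Of the members, Gyg, Gbe1, Phka2 and, by very little, Pygl were highest in vehicle replicate 2, and the others, Ppp1r3c among them, were not. All 6 hepatocyte markers were highest there too, so this trait is not particular to muscle genes.

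**Figure D4:**
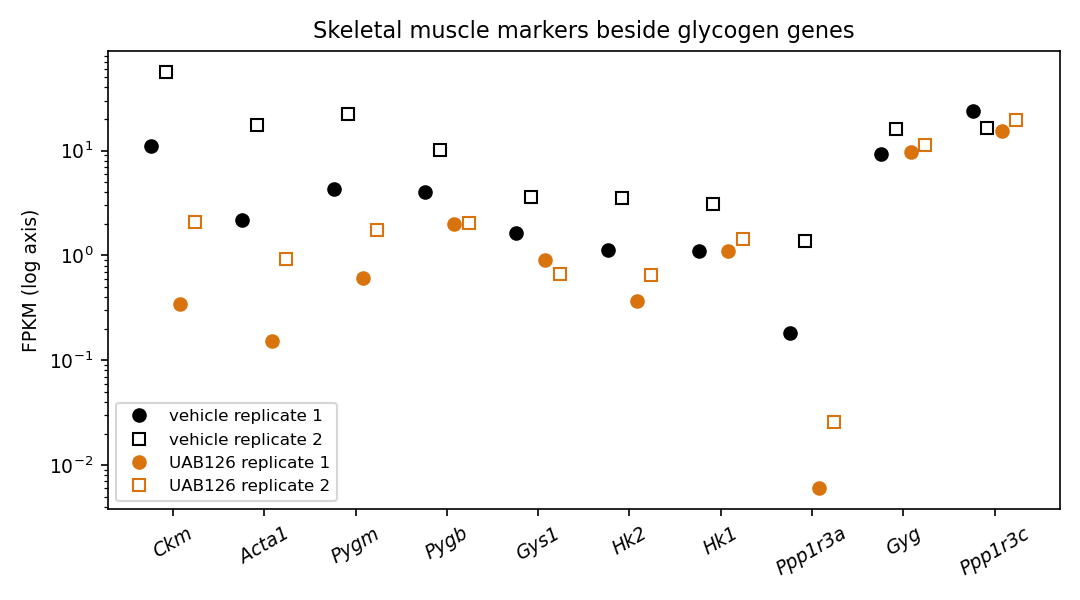
FPKM on a log axis of 2 skeletal muscle markers (Ckm and Acta1), of 6 glycogen or hexokinase genes of other tissues and of the members Gyg and Ppp1r3c, with a point for each library (symbols as in the plot of the 9 genes). Vehicle replicate 2 is highest in every gene shown except Ppp1r3c, where vehicle replicate 1 is highest at 23.7 FPKM.

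Across the whole table, 15 of 10786 symbols passed, 5 higher and 10 lower, and correlations between libraries ran from 0.914 to 0.959 (Pearson, across genes, which are not independent replicates). Hepatocyte markers were abundant in each library (Ttr from 19625 to 44092 FPKM) except that Alb is listed at 0 in all but vehicle replicate 2. All 6 hepatocyte markers were highest in vehicle replicate 2, Alb because of its 0 elsewhere. In 4 of the 6 the UAB126 libraries were the lower pair, against 26.9% of all tested symbols and 45.5% of the abundant genes described above. All 6 markers belong to those abundant genes. The summed macrophage markers (5 of 6 in the table) were at 49.9 FPKM in vehicle replicate 1 and between 127 and 146 FPKM in the other libraries, and the summed endothelial markers (4 of 5) at 51.1 FPKM and between 77.7 and 96.3 FPKM. Stellate cell markers (4 of 5) summed to between 126 and 174 FPKM, cholangiocyte markers (5 of 5) to between 54.5 and 70.9 FPKM and adipose markers (3 of 4) to between 2.92 and 6.20 FPKM. Both UAB126 libraries were above both vehicle libraries in 2 macrophage markers and 1 endothelial marker, against 22.7% of all tested symbols. They were below in 1 cholangiocyte marker, against 26.9%, and in no marker of the stellate and adipose lists did the groups separate. The part of cell makeup in the differences of the 9 genes was not tested.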

How the data were processed

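RNA of 4 mouse liver libraries was measured by sequencing of polyadenylated RNA. The authors deposited FPKM values per gene. The submitters' processing notes name STAR 2.5.1b, Trim Galore 0.4.1, Cuffdiff and Cufflinks 2.2.1 on mm10; annotation and settings: not given in the sources used here. The depth cannot be read directly from FPKM, so no count test was run. Of 27216 rows, 3634 without a symbol were left out, and rows of 1 symbol were summed (22849 symbols). Those whose mean reached 1 FPKM (10786 symbols) were fitted as log2(FPKM + 1) with limma 3.58.1 in R 4.3.3 (trend, group as the only term, two-sided, Benjamini-Hochberg, threshold 0.05), so differences of low genes are understated. The fit was tested on simulated data. Ratios and shares were compared by an exact permutation over libraries. Python 3.11.15, pandas 2.3.3 and numpy 2.4.6 were used otherwise. Strand use is not stated, so overlapping genes cannot be told apart.

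The members and lists were chosen with earlier results of these data known. All 9 members are named. From the list of 37 further genes, those past the threshold and up to 12 with groups that did not overlap and the largest differences are named, and beside Gbe1 and Ppp1r3b the 3 nearest patterns. Of the genes named by this rule, 1 of the list and 1 of the nearest patterns are not reported here. Marker lists covered hepatocytes, macrophages, endothelial, stellate and cholangiocyte cells, adipose tissue and skeletal muscle. Alternatives changed the pseudocount, filter, scaling, length trend, prior spread, rows used, replicate block and libraries. Promoter windows came from RefSeq (GRCm38.p6).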

Additional observations from a re-analysis of the deposited data

How the results depend on the processing

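None of the 8 tested members passed in any of 15 alternative settings, and 117 of 120 differences of these members kept their direction. Settings that changed only the filter, prior spread, rows used or replicate block leave these log2 differences unchanged by design. Their directions could not turn, so that part of the count says nothing about stability. The lowest limma adjusted p was 0.0865, for Gbe1 with the replicate block, and the log2 difference of Gbe1 ran from -0.97 to -0.56 over the settings. Ppp1r3b ran from 0.34 to 0.64 and Phka2 from -0.57 to -0.38. Pygl turned to 0.058 with quantile normalization. Leaving out 1 library at a time gave -0.58 to 0.15 for Gyg and -0.43 to 0.080 for Ppp1r3c. Ppp1r3g was tested only without the filter, with 0.15. The count of further glycogen genes past the threshold, 0 in the main fit, ran from 0 to 4 over the fits without 1 library, with 4 without vehicle replicate 1. The cause was not tested.

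With the replicate block 0 members and 0 further genes passed, and the count over all symbols was 148 against 15. Replicate numbers in the titles are not said to mark a shared source, and the deviations of same-numbered libraries from their group means correlated at 0.178, with 2 pairs only. That count over all symbols ran from 0 (without UAB126 replicate 2) to 442 (without vehicle replicate 1) and was 56 without vehicle replicate 2. It was 0 without a filter and with rows without a symbol, 27 with a pseudocount of 0.1 and 24 (12 higher and 12 lower) with quantile normalization. At the transcript lengths examined, vehicle replicate 2 had the highest of the smallest values above 0. At the length of Ppp1r3g this was 0.0429 FPKM, against 0.00848 to 0.0142 FPKM in the other libraries. The gap was narrower at the length of Ppp1r3d (0.0261 against 0.00738 to 0.0173 FPKM) and of Ppp1r3f (0.0121 against 0.00454 to 0.0103 FPKM).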
